A study of Mus musculus with 13 samples.

Results

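Sphingosine 1-phosphate is a signalling lipid that is made, exported and sensed by endothelial cells, and the 10 genes described here encode the enzymes, exporter and receptors of that pathway in liver endothelium. They are the ceramidase genes Acer2, Acer3 and Asah1, the kinase genes Sphk1 and Sphk2, the exporter gene Spns2, the receptor genes S1pr1 and S1pr3, the phosphatase gene Sgpp1 and the lyase gene Sgpl1. They were chosen by gene symbol, and all 10 were found among the 24421 symbols of the count table. Bulk RNA was sequenced from liver endothelium of wild-type mice, in 6 libraries of germ-free animals, which carry no live microbes (GF, libraries 8 to 13), and 7 libraries of conventionally raised animals, which carry a normal microbiota (CONV-R, libraries 1 to 7). No further treatment, age, sex or strain is given. Neither the cell isolation nor the number of animals behind a library is stated, and p-values therefore reflect library-to-library spread only, which may be technical. The question is how the microbiota bears on endothelial expression.

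In this pathway ceramidases release sphingosine from ceramide, and sphingosine kinases phosphorylate it. Spns2 then carries the product out of endothelial cells, where it acts on G protein-coupled receptors. Phosphatases turn the signal back into sphingosine, and the lyase cleaves it for good. S1pr1 is the main such receptor of endothelium and is known for strengthening endothelial junctions, and the same lipid guides lymphocytes out of tissues into blood and lymph.

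Library totals ranged from 23407168 to 35478115 counts in GF and from 7590320 to 32869515 counts in CONV-R. Endothelial identity was clear in the libraries, with summed pan-endothelial markers (10 genes, among them Cdh5, Pecam1 and Kdr) at 23114 to 24214 counts per 1000000 (CPM) of the library total in GF and 13673 to 23212 CPM in CONV-R, and summed sinusoidal markers at 30600.5 to 32535 CPM in GF and 17634 to 29823 CPM in CONV-R. Both sums were higher in GF (exact two-sided permutation test over libraries, adjusted p = 0.00699 and adjusted p = 0.00466 over 12 marker lists). CONV-R 1 stood apart, with the lowest endothelial sums and 1672 CPM of B cell markers, against 55.3 to 78.5 CPM in the other CONV-R libraries. The B cell sum was also lower in GF as a group (19.1 to 35.4 CPM, below every CONV-R library, adjusted p = 0.00466, 7 of 7 markers lower), as were those of neutrophils and monocytes (442 to 667 CPM in GF and 629 to 2826 CPM in CONV-R, adjusted p = 0.00839, 7 of 8 markers lower) and of red cells (8.29 to 22.7 CPM in GF and 17.4 to 47.3 CPM in CONV-R, adjusted p = 0.0256), all by the same exact test. Their part in the results was not tested. Library names carry a code number that is 6 in all GF libraries, 10 in CONV-R 1 to 4 and 9 in CONV-R 5 to 7. It never occurs in both groups, so it and the group cannot be told apart, and GF was therefore also set against each CONV-R code number alone. Across all genes 13915 were tested, and 24.1% of them differed between GF and CONV-R, 11.4% higher and 12.7% lower (quasi-likelihood test of edgeR at an adjusted p under 0.05).

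Of the 10 genes 2 rose in GF, Acer2 and S1pr1, and 1 fell, Sgpl1. The other 7 did not pass the threshold. That is 2 of 10 higher against 11.4% of all tested genes, and 1 of 10 lower against 12.7%, so the count as such is near the background and the description rests on the single genes. GF lay wholly above CONV-R for 2 of the 10 genes, against 5.94% of tested genes, and wholly below for 0 of them, against 4.32%. All 10 passed the filter on low counts. Their median log2 fold change (GF over CONV-R) was 0.07, beside -0.01 over all tested genes. Scaling libraries to the pan-endothelial genes instead moved the median of all genes to -0.40. Of the 10 genes 5 were then lower (Sgpl1 at -0.80, Acer3 at -0.55, Spns2 at -0.48, Asah1 at -0.35 and Sgpp1 at -0.33) and the same 2 were higher. Among all 13915 tested genes 6614 were then lower and 341 higher, so the count of lower genes as such is near the background. In these bulk libraries fewer cells of a type and less RNA per cell cannot be told apart.

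**Figure D1:**
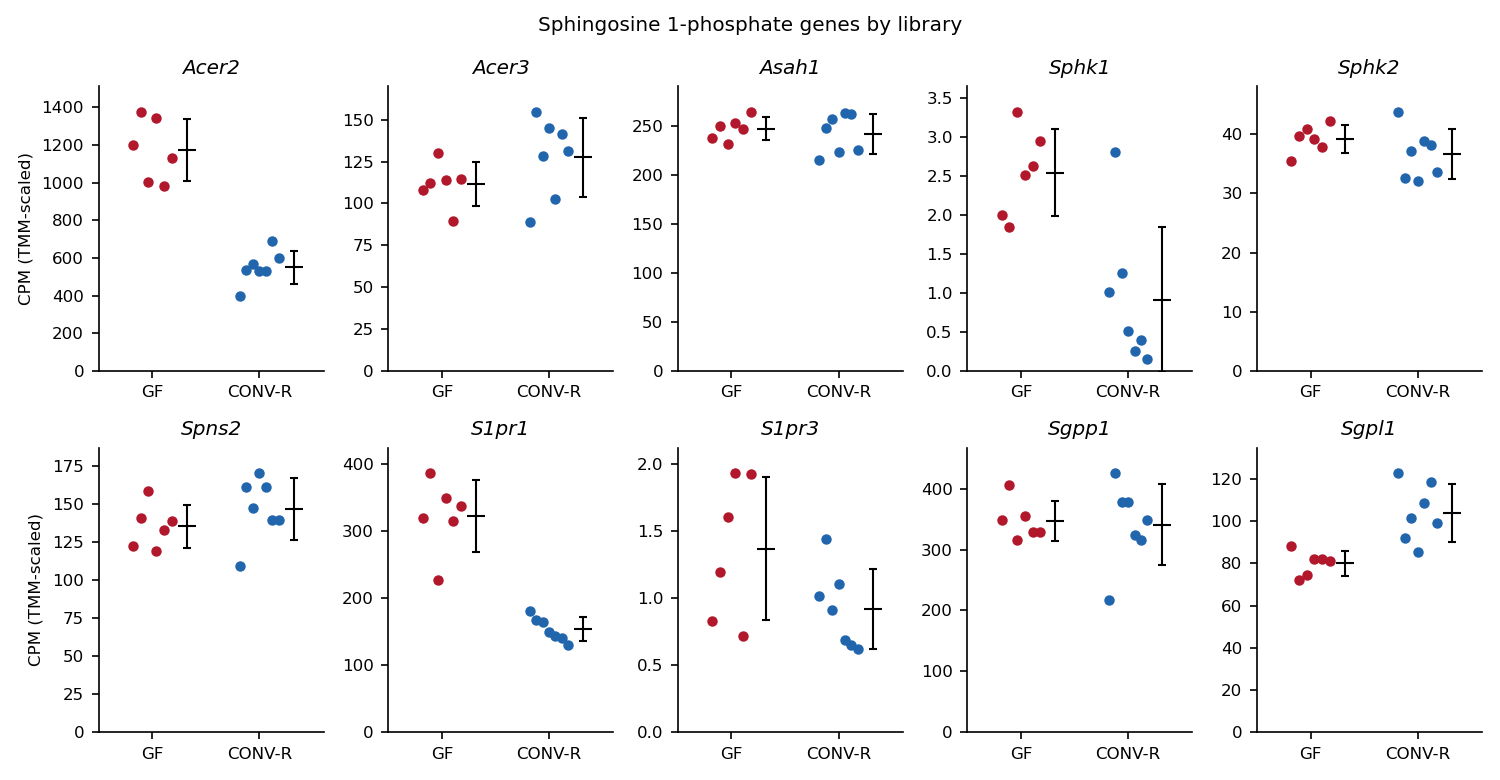
Each panel plots 1 gene in CPM of the TMM-scaled library (the library total adjusted by edgeR), with 1 point per library, GF on the left and CONV-R on the right, and the mean ± SD beside the points (the lower end for Sphk1 in CONV-R lies below 0 and is not drawn). The 6 GF points lie above all 7 CONV-R points for Acer2 and S1pr1, and most lie below them for Sgpl1.

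The proximal promoters of Acer2 and Sgpl1, the raised enzyme gene and the lowered one, are shown because these genes moved in opposite directions. Each sequence is the 250 bases before a transcript start in RefSeq GRCm38.p6, read 5′ to 3′ on the gene's own strand, with the GC box GGGCGG in capitals on either strand (CCGCCC on the other).
Acer2 (chr4:86874164-86874413, plus strand): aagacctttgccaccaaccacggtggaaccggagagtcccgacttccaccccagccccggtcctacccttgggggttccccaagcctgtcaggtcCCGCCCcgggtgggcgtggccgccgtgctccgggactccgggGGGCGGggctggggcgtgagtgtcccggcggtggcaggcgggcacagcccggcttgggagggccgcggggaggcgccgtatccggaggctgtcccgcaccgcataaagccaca
Sgpl1 (chr10:61147685-61147934, minus strand): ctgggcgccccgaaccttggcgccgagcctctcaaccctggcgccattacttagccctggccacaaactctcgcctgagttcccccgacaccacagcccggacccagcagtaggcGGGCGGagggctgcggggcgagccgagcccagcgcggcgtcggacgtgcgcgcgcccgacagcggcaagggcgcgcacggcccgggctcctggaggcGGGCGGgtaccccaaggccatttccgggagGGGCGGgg

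Both promoters were rich in G and C, at 73.2% for Acer2 and 74.8% for Sgpl1, beside a median of 52.4% over 32851 promoter windows, in which a gene can have several. Acer2 held 2 GC boxes and Sgpl1 held 3, and 32.7% of all windows held at least 1. The KLF-type motif CCACCC, searched on both strands, was found 2 times before Acer2 and 0 times before Sgpl1, and 28.1% of all windows held it. No GC box overlapped a KLF-type match in either window (0 overlaps). Windows of genes that did not pass also differed. An Acer3 window held 2 KLF-type matches and 3 GC boxes, while another Acer3 window and the Sgpp1 window held 0 of both. For Acer2 this transcript start lies inside the whole span of the gene, so the last 66 bases shown belong to that span. A match is a description of letters and not of binding. Of the 10 genes 8 had a promoter entry; S1pr1 and Asah1 are named only.

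Ceramidases, which supply sphingosine, differed among themselves. Acer2, the alkaline ceramidase of the Golgi (chromosome 4 from 86874348 to 86932524), had 1200.3, 1376, 1005, 1344, 982 and 1131 CPM in GF libraries 8 to 13, against 396, 537, 567, 531, 532, 691 and 599 CPM in CONV-R libraries 1 to 7. The groups did not overlap, and the lowest GF library stood well above the highest CONV-R library. Acer2 thus averaged 1173 ± 166 CPM in GF and 550.4 ± 88.6 CPM in CONV-R (SD, n = 6 and 7), a 2.13-fold rise (log2 fold change 1.09 ± 0.12 SE, edgeR adjusted p = 8.46e-05). The log2 fold change was 1.21 with CONV-R of code number 10 only and 0.94 with code number 9 only, both past the threshold.

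Acer3 and Asah1, the other ceramidase genes of the 10, did not pass. Asah2, a ceramidase gene outside the 10, was called higher (edgeR adjusted p = 0.0345) and is described with the other pathway genes. Acer3, an alkaline ceramidase of the endoplasmic reticulum and Golgi, averaged 111 ± 13.0 CPM in GF and 127 ± 23.8 CPM in CONV-R, with a 95% interval of its log2 fold change from -0.46 to 0.07. Asah1, the acid ceramidase of lysosomes, had 231 to 264 CPM in GF and 215 to 263 CPM in CONV-R. The 95% interval of its log2 fold change, from -0.10 to 0.17, was the narrowest of the 10 genes. The count ratio of Acer2 to Asah1 within a library needs no scaling between libraries. It was 3.99 to 5.51 in GF and 1.85 to 2.66 in CONV-R, without overlap. Per kb of exon, Acer2 made up 63.6% to 70.3% of the signal of Acer2, Acer3 and Asah1 together in GF and 44.5% to 52.8% in CONV-R. Asah2 was not part of this share.

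**Figure D2:**
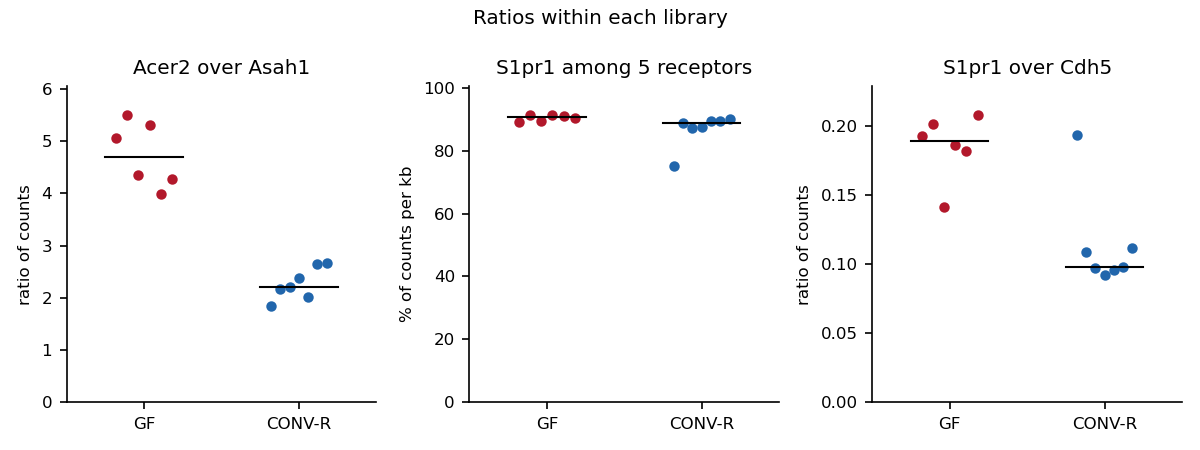
Ratios within each library are plotted, with 1 point per library, GF left of CONV-R, and a line at the median: Acer2 over Asah1 counts, S1pr1 as a percentage of the counts per kb of 5 receptor genes, and S1pr1 over Cdh5 counts. The Acer2 ratio separates the groups, while the S1pr1 over Cdh5 ratio of CONV-R 1 (0.194) lies among the GF values.

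The sphingosine kinases add the phosphate. Sphk2, the kinase found in nucleus and mitochondria, had 35.5 to 42.3 CPM in GF and 32.1 to 43.8 CPM in CONV-R, with a log2 fold change of 0.10 (95% interval -0.06 to 0.26, edgeR adjusted p = 0.340). Its exons overlap those of Dbp, a clock-controlled transcription factor gene on the opposite strand, over 539 bases, and those of Rpl18 over 373 bases. Dbp rose in GF, with 37.95 ± 11.4 CPM against 20.6 ± 4.71 CPM in CONV-R, and Rpl18 did not pass the threshold (adjusted p = 0.404). The libraries were stranded but the counting setting is not given, so reads of the shared stretches cannot be assigned with certainty.

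Sphk1, the inducible cytosolic kinase, was low, and near the limit of detection in the CONV-R libraries of code number 9. Its counts were 65, 42, 112, 56, 91 and 69 in GF libraries 8 to 13, or 1.86 to 3.33 CPM. In CONV-R libraries 1 to 7 they were 20, 86, 37, 17, 4, 3 and 2, or 0.156 to 2.82 CPM. The 3 CONV-R libraries with 2 to 4 counts are those of code number 9, which were also shallower, and CONV-R 2 reached the GF range. The log2 fold change was 1.39 with a 95% interval from 0.34 to 2.44 and missed the threshold (edgeR adjusted p = 0.0537). It was 3.31 and past the threshold with code number 9 only (adjusted p = 1.10e-04) and 0.86 with code number 10 only (adjusted p = 0.171). Without CONV-R 2 it was 1.99 and passed (adjusted p = 0.00468). DESeq2 (adjusted p = 0.0242) and limma-voom (adjusted p = 0.0283) also called it. Cholangiocyte markers were also higher in GF (exact permutation test, adjusted p = 0.0260). Their sum was 134 to 355 CPM in GF and 46.7 to 252 CPM in CONV-R, 3 of 6 markers rose, no marker was at 0, and the highest CONV-R sum (252 CPM) was that of CONV-R 2. Within GF, libraries 10 and 13 had the highest sums and the highest Sphk1, and libraries 8 and 9 the lowest of both. Their part in the Sphk1 values was not tested.

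Export from endothelium was represented by the transcript of Spns2, the transporter that releases the lipid into plasma and lymph. It had 119.3 to 158 CPM in GF and 109 to 169.9 CPM in CONV-R, in overlapping ranges. The log2 fold change was -0.12 with a 95% interval from -0.33 to 0.09 (edgeR adjusted p = 0.399). Its exons overlap those of Mybbp1a on the opposite strand over 131 bases. Mfsd2b, the exporter of red cells and platelets, stood at 2.96 to 5.14 CPM in GF and 2.56 to 7.55 CPM in CONV-R.

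S1pr1, the Gi-coupled receptor of endothelium (chromosome 3 from 115710433 to 115715055, minus strand), was the receptor that rose. It had 319.7, 386, 227, 349, 315 and 338 CPM in GF libraries 8 to 13, against 180.4, 168, 164, 149.8, 145, 141 and 131 CPM in CONV-R libraries 1 to 7. The groups did not overlap, and GF 10 was the lowest of its group. S1pr1 averaged 323 ± 53.2 CPM in GF and 154 ± 17.4 CPM in CONV-R (SD, n = 6 and 7), a 2.09-fold rise (log2 fold change 1.06 ± 0.11 SE, edgeR adjusted p = 5.30e-05). With CONV-R of code number 10 only the log2 fold change was 0.96, and with code number 9 only it was 1.21, both past the threshold. With library totals in place of TMM it was 0.96, and with libraries scaled to the pan-endothelial genes it was 0.65 (edgeR adjusted p = 0.0118). Acer2 stood at 0.71 under that scaling. Beside Cdh5, the gene of VE-cadherin, S1pr1 counted 0.141 to 0.208 in GF and 0.0920 to 0.112 in CONV-R 2 to 7. CONV-R 1 was at 0.194. In that library Cdh5 was at 932 CPM, the lowest of CONV-R (mean 1416 ± 271 CPM), and S1pr1 at 180.4 CPM, the highest of CONV-R. CONV-R 1 is also the library with the high B cell markers, and lymphocytes also express S1pr1. The part of lymphocytes in the ratio was not tested.

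S1pr3, a receptor coupled to several G protein classes, was rare, with 25 to 54 counts per GF library and 5 to 44 per CONV-R library. It stood at 0.722 to 1.93 CPM in GF and 0.623 to 1.44 CPM in CONV-R, and its log2 fold change of 0.52 had a 95% interval from -0.10 to 1.14. The interval includes 0, and few counts underlie it. The count ratio of S1pr1 to S1pr3, not adjusted for length, was 142 to 437 in GF and 117 to 216 in CONV-R. Of the 5 receptor genes per kb of exon, S1pr1 made up 88.9% to 91.4% in GF and 75.1% to 90.1% in CONV-R, where the lowest value was that of CONV-R 1 and the next 87.2%. S1pr4, a receptor of leukocytes, had 15.4 to 24.1 CPM in GF and 5.91 to 12.2 CPM in CONV-R 2 to 7, but 40.2 CPM in CONV-R 1. It did not pass over all libraries (log2 fold change 0.59, edgeR adjusted p = 0.260) and passed without CONV-R 1 (1.12, adjusted p = 7.84e-04). In CONV-R 1 markers of T and NK cells summed to 224 CPM and those of B cells to 1672 CPM. The T and NK cell sum was 26.8 to 82.0 CPM in GF and 29.9 to 45.6 CPM in CONV-R 2 to 7. The B cell sum was 19.1 to 35.4 CPM in GF, below the 55.3 to 78.5 CPM of CONV-R 2 to 7. The part of these cells in S1pr4 was not tested. S1pr2 and S1pr5 had log2 fold changes of -0.15 and 0.16 and did not pass.

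Degradation was represented by the transcripts of the lyase and the phosphatases, and was not itself measured. Sgpl1, the lyase that ends the pathway irreversibly (chromosome 10 from 61098642 to 61147684), had 88.2, 72.1, 74.5, 82.0, 82.3 and 80.9 CPM in GF libraries 8 to 13. CONV-R libraries 1 to 7 had 123, 91.9, 102, 85.3, 109, 118 and 98.9 CPM. Only GF 8 reached into the CONV-R range, above CONV-R 4. Sgpl1 averaged 80.0 ± 5.82 CPM in GF and 104 ± 13.6 CPM in CONV-R (SD, n = 6 and 7), a log2 fold change of -0.38 ± 0.09 SE (edgeR adjusted p = 0.00815), or 1.30-fold lower. With code number 10 only it was -0.33 and missed the threshold (adjusted p = 0.0511), and with code number 9 only it was -0.45 and passed. The CONV-R libraries highest in Sgpl1 (1, 5 and 6) also had the highest Kupffer cell marker sums, at 6696, 7431 and 7555 CPM. That sum ranged from 2266 to 3697 CPM in GF and from 2398 to 7555 CPM in CONV-R, 0 of its 10 markers passed the threshold and none was at 0. With it as a covariate the log2 fold change was -0.22 and still passed (adjusted p = 0.0419). With the hepatocyte marker sum as a covariate it was -0.19 and did not pass (adjusted p = 0.473). That sum was 785 to 1266 CPM in GF and 1426 to 8257 CPM in CONV-R, 11 of its 12 markers fell and none was at 0. The groups did not overlap in it, so this covariate and the group cannot be fully told apart. Calls over all genes fell from 1593 higher and 1764 lower to 275 and 225 with it. S1pr1 and Acer2 stayed past the threshold with the hepatocyte covariate, at 1.03 and 0.87.

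Sgpp1, the phosphatase of the endoplasmic reticulum that returns the lipid to sphingosine, had 315 to 406 CPM in GF and 216 to 425 CPM in CONV-R. Its log2 fold change was 0.03 with a 95% interval from -0.24 to 0.30. CONV-R 1 was the lowest of all libraries at 216 CPM, and the next lowest CONV-R library held 316 CPM.

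Compared per kb of merged exon (GENCODE M21 on GRCm38), the genes fell in the following order. In GF Acer2 was highest at 164 ± 23.2 CPM per kb, followed by S1pr1 at 106 ± 17.5, Asah1 at 72.8 ± 3.41 and Sgpp1 at 61.4 ± 5.75. In CONV-R Acer2 (76.9 ± 12.4), Asah1 (71.2 ± 5.99), Sgpp1 (60.3 ± 11.7) and S1pr1 (50.6 ± 5.70) each overlapped their neighbour in the order, while Asah1 lay wholly above S1pr1. In GF Acer2 did not overlap S1pr1, while S1pr1 overlapped Asah1, and Asah1 overlapped Sgpp1. Below them came Spns2, Sgpl1, Sphk2 and Acer3 in both groups, of which Sphk2 and Acer3 overlapped in CONV-R. Sphk1 and S1pr3 were last, at 0.533 ± 0.117 and 0.306 ± 0.119 CPM per kb in GF and 0.191 ± 0.195 and 0.206 ± 0.0666 in CONV-R, and overlapped in both groups. The merged exons of Acer3 span 15.3 kb, the most of these genes, which lowers its value per kb.

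**Figure D3:**
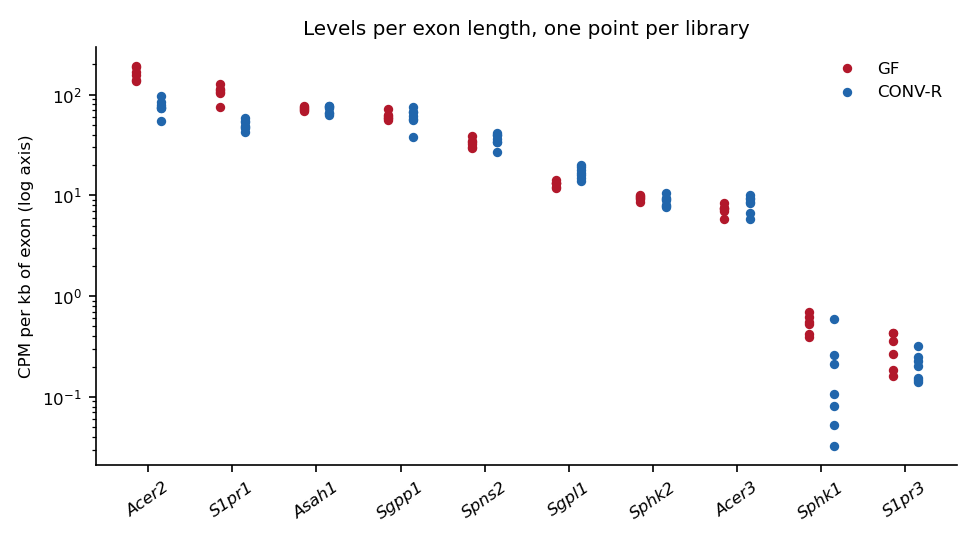
Levels of the 10 genes are plotted in CPM per kb of exon on a log axis, with 1 point per library and GF left of CONV-R, ordered by the GF mean. Acer2 and S1pr1 lead in GF, and Sphk1 and S1pr3 lie below 1 CPM per kb in both groups.

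Other genes of the pathway were called about as often as all genes. Of 13 listed, 3 were found under an older symbol and 12 were tested: 2 were called higher (against 11.4% of all tested genes), 1 was called lower (against 12.7%) and 9 were not called, with a median log2 fold change of 0.27 beside -0.01 over all tested genes. Acer1, a ceramidase of skin, had at most 3 counts in any library and was not tested. Sgpp2, the second phosphatase of the lipid, had 1.28 to 3.12 CPM in GF and 0.392 to 1.999 CPM in CONV-R (log2 fold change 1.39 ± 0.33, edgeR adjusted p = 0.0101). Its highest CONV-R value was in CONV-R 2, the library with the highest cholangiocyte sum of its group, and that part was not tested. The Sgpp2 call was lost with code number 10 only (adjusted p = 0.0693) and with either the hepatocyte or the Kupffer cell covariate. Asah2, the neutral ceramidase, had 207 to 246 CPM in GF and 96.3 to 205 CPM in CONV-R (0.43 ± 0.13, adjusted p = 0.0345). Its call was lost with code number 10 only (adjusted p = 0.125) and on leaving out CONV-R 5 or 7 or any GF library, with adjusted p from 0.0506 to 0.0857, and its log2 fold change was -0.076 with the hepatocyte covariate. Apom, which encodes the carrier of the lipid on lipoproteins and is made by hepatocytes, had 1.18 to 1.90 CPM in GF and 2.002 to 18.2 CPM in CONV-R (-2.42 ± 0.49, adjusted p = 0.00439). Its highest value was in CONV-R 1, which also had the highest hepatocyte sum, and with that sum as a covariate its log2 fold change was 0.088 and did not pass. With the Kupffer cell covariate it was -1.54 and also missed the threshold (adjusted p = 0.0539). The lipid phosphate phosphatase genes Plpp1 and Plpp3, whose products remove phosphate outside the cell, averaged 1240.2 and 2342 CPM in GF, against 896 and 1785 CPM in CONV-R, and did not pass (adjusted p = 0.0821 and adjusted p = 0.135).

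Genes that couple or restrain the receptors were read from a list of 14, all tested. Of these 5 were called higher, 2 were called lower and 7 were not called, beside 11.4% higher and 12.7% lower over all tested genes, with a median log2 fold change of 0.15. Arrb1, a beta-arrestin that binds activated receptors, had 901 to 1033 CPM in GF and 481 to 732 CPM in CONV-R, without overlap (log2 fold change 0.69 ± 0.10, edgeR adjusted p = 5.76e-04). The inhibitory G protein genes Gnai1 (1.08 ± 0.22) and Gnai3 (0.32 ± 0.08) rose, as did the GTPase genes Rac1 (0.40 ± 0.10) and Rhoa (0.22 ± 0.07), while Gnai2 stood at 0.094 ± 0.08 and did not pass. The Rhoa call (edgeR adjusted p = 0.0309) passed in only 5 of 13 fits that left out 1 library, with adjusted p from 0.0298 to 0.0852. Gnai1, Gnai3 and Rac1 passed in all 13. Of the 13 other alternatives, Gnai1 passed in 12, and Gnai3 and Rac1 passed in 8 each. With code number 10 only, and with the Kupffer cell covariate, 2 of the 14 were higher, Arrb1 and Gnai1. The calls of Gnai3, Rac1 and Rhoa were lost in both settings. Gnai1 was rare, at 5.49 ± 0.79 CPM in GF and 2.57 ± 0.89 CPM in CONV-R. The receptor kinase gene Grk2, listed under its older symbol Adrbk1, fell (-0.39 ± 0.13), with 185 to 197 CPM in GF and 201 to 380 CPM in CONV-R, and stood at 0.093 with the hepatocyte covariate. The Grk2 call passed in 4 of 13 fits that left out 1 library, with adjusted p from 0.0233 to 0.0903, and was lost without CONV-R 5, 6 or 7 or any GF library and with code number 10 only (adjusted p = 0.172). Cd69, which holds S1pr1 inside lymphocytes, had 1.46 to 3.05 CPM in GF and 2.57 to 26.8 CPM in CONV-R (-1.87 ± 0.53), with its highest value in CONV-R 1. Without CONV-R 1 the log2 fold change of Cd69 was -1.02. The Cd69 call (edgeR adjusted p = 0.0230) passed in 12 of 13 fits that left out 1 library, with adjusted p from 0.00727 to 0.0528. The call was lost without GF 9, and also with the Kupffer cell covariate. Klf2, a flow-responsive transcription factor gene, stood at -0.15 ± 0.14 and did not pass. With libraries scaled to the pan-endothelial genes, which shifts all genes downward, 2 of the 14 (Gnai1 at 0.74 and Arrb1 at 0.32) were higher and 7 were lower. Over all 13915 tested genes 341 were then higher and 6614 lower. Gnai3 (-0.056) and Rhoa (-0.17) took a negative sign without passing. With the hepatocyte covariate 0 of the 14 were higher and 0 lower, beside 275 higher and 225 lower of 13915 tested genes.

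**Figure D4:**
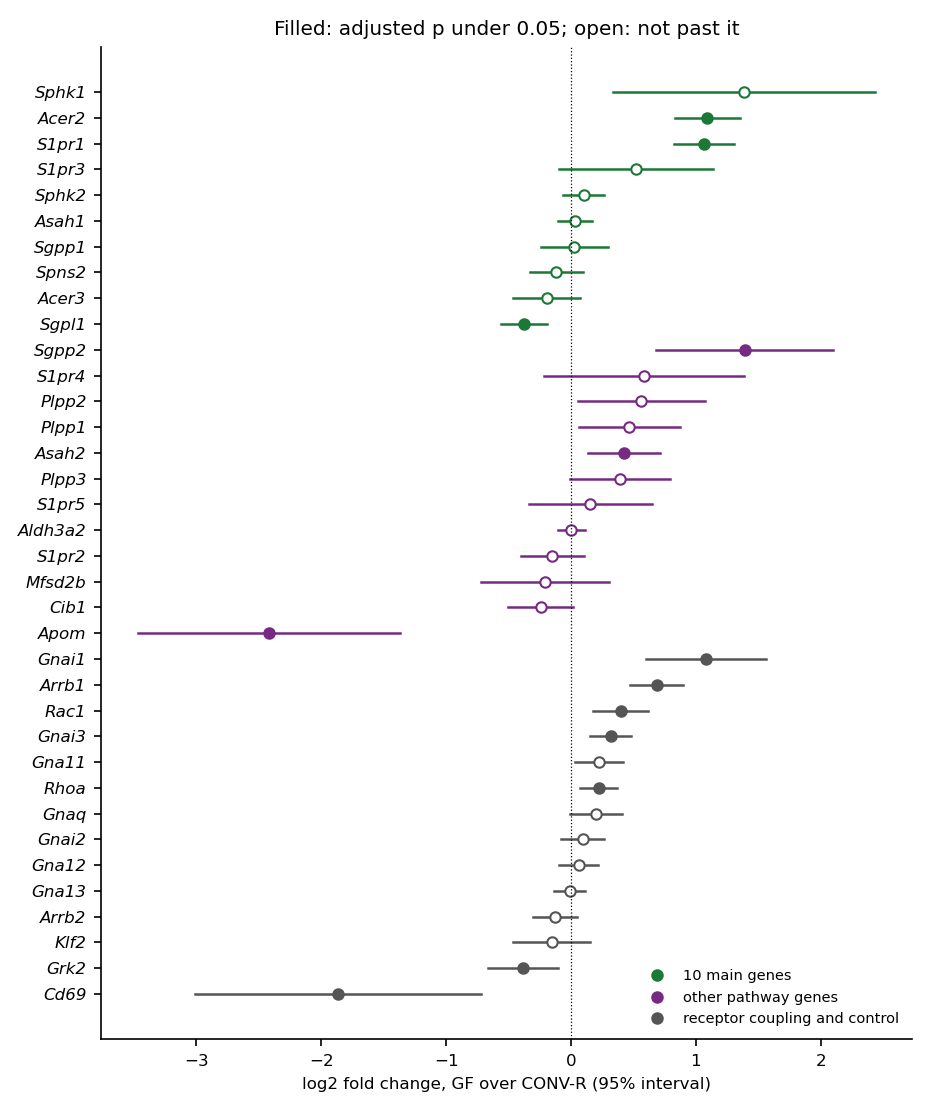
Log2 fold changes of GF over CONV-R are plotted with 95% intervals for the 10 genes, the other pathway genes and the receptor coupling genes, filled where the adjusted p was under 0.05. Acer2 and S1pr1 lie near 1 with short intervals, Sphk1 is as high with a wide one, and Apom and Cd69 are the lowest.

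The profile of S1pr1 over the 13 libraries was set against those of 13003 other genes with a mean of at least 1 CPM, by the root mean square distance of centred log2 values. The nearest were Lims2 (distance 0.176), an integrin-linked adaptor gene, Aph1b (0.178), a gamma-secretase subunit gene, Fabp5 (0.185), a fatty acid binding protein gene, Cdkn1a (0.185), a cell cycle inhibitor gene, and Macrod2 (0.195). Acer2 ranked at 63 with a distance of 0.279, and the other 8 genes lay between 0.488 and 0.744. The distance mostly reflects the difference between the groups, which all these neighbours share by selection.

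**Figure D5:**
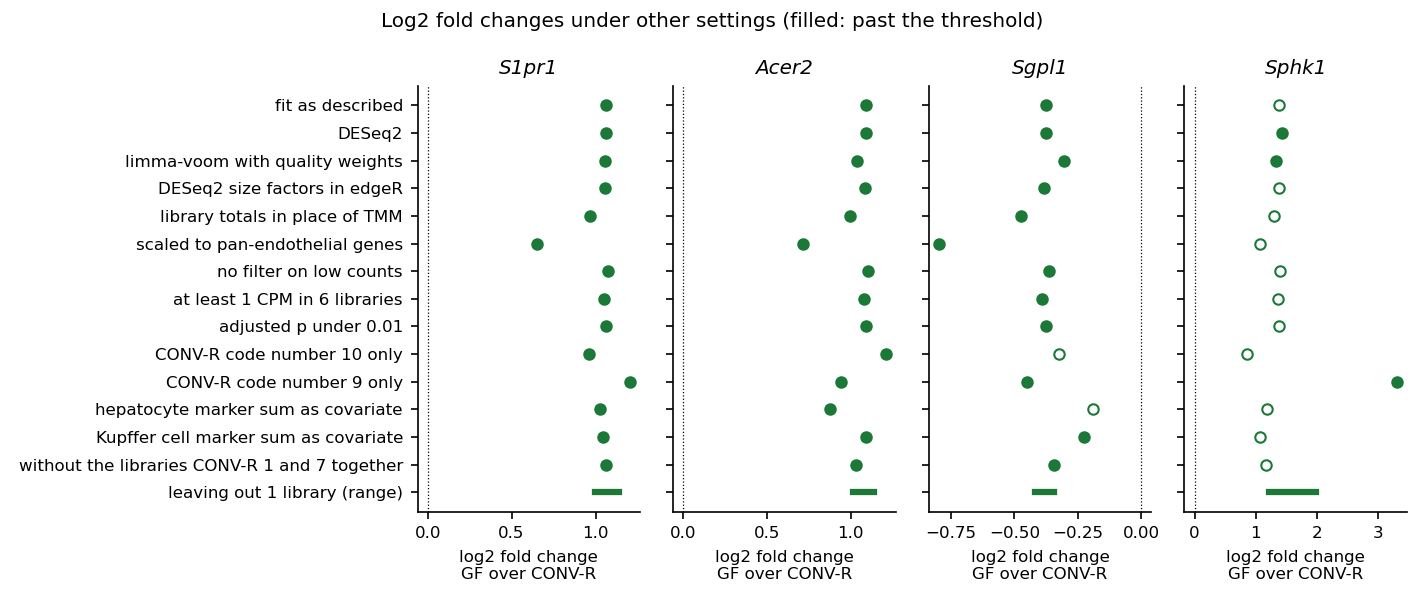
Log2 fold changes of GF over CONV-R for S1pr1, Acer2, Sgpl1 and Sphk1 are plotted under each setting, filled where the threshold was passed, with the range on leaving out 1 library as a bar. S1pr1 and Acer2 are filled in every setting shown, while Sgpl1 is open in 2 settings and Sphk1 is filled in 3.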

How the data were processed

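Liver endothelial cell RNA of 13 libraries was sequenced from stranded poly(A) libraries, per the labels' protocols. Raw counts by gene symbol were deposited by the authors in 1 table. FastQC 0.11.9, STAR 2.7.5a, featureCounts 2.0.1 and DESeq2 1.42.1 and the build mm10 are named per the submitters' processing notes. Annotation, strand setting and filters were not given in the sources used here.

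From these counts edgeR 4.0.16 (R 4.3.3) was run as follows: filterByExpr (minimum count 10, minimum total 15), TMM scaling, robust quasi-likelihood fit of group over all genes, Benjamini-Hochberg adjustment, threshold 0.05. Intervals of 95% use the SE (absolute log2 fold change over the square root of F) and the fit's degrees of freedom. Libraries of a group all differed by more than sampling noise (chi-square over its degrees of freedom at least 13.4). Marker sums are CPM of the library total, compared as log2 of the sum plus 1 over all 1716 splits. Alternatives were DESeq2 1.42.0, limma-voom (limma 3.58.1), other scalings, filters, thresholds and covariates, each CONV-R code number alone and leaving out each library; leaving out CONV-R 1 and 7 together, the highest in hepatocyte markers, was added after seeing the data. On simulated counts the fit was tested before use. The genes and lists were chosen with earlier results of these data known. Named genes are the 10 genes, the called members of the other lists and the 5 profiles nearest to S1pr1; further genes named (Acer1, Mfsd2b, other receptors, Plpp1, Plpp3, Gnai2, Klf2, Dbp, Rpl18) were chosen after their values were seen. Gene positions and promoters are from RefSeq GRCm38.p6, exon lengths and overlaps from GENCODE M21, the build the submitters call mm10.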

Additional observations from a re-analysis of the deposited data

Results flagged for a closer look

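A single library stood far from the rest of its group in 19 of 124 sets of values examined (gap to the nearest library over the range, above Dixon's critical value). By chance that value flags about 1 in 20 only among independent, normally distributed sets. The sets here overlap in genes and libraries, so the 19 cannot be set against that rate. Most of the 19 involved CONV-R 1. It was the highest of its group for B cell markers (1672 CPM), T and NK cell markers (224 CPM), platelet markers (56.0 CPM), S1pr4 (40.2 CPM and 21.4% of receptor signal), Cd69 (26.8 CPM), Grk2 (380 CPM) and the counts of S1pr1 and Sgpl1 over Cdh5 (0.194 and 0.132). It was the lowest for sinusoidal markers (17634 CPM), Gna12 (87.3 CPM) and the share of S1pr1 among receptors (75.1%).

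CONV-R 2 was the highest of its group for Sphk1 (2.82 CPM) and Sgpp2 (1.999 CPM). GF 8 was the highest for B cell markers (35.4 CPM) and T and NK cell markers (82.0 CPM), and GF 11 for stellate cell and fibroblast markers (584 CPM). GF 13 was the lowest for Arrb1 (901 CPM), and GF 10 the highest for the share of Acer3 among Acer2, Acer3 and Asah1 (3.91%).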

How the results depend on the processing

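S1pr1 and Acer2 kept their direction and passed the threshold in all 26 alternatives, with log2 fold changes from 0.65 to 1.21 for S1pr1 and from 0.71 to 1.21 for Acer2. Leaving out 1 library gave 0.998 to 1.14 for S1pr1, 1.01 to 1.14 for Acer2, -0.42 to -0.34 for Sgpl1 and 1.22 to 1.99 for Sphk1. Sgpl1 was lost against code number 10 alone (-0.33) and with the hepatocyte covariate (-0.19), and the genes lower were then 0 of the 10. Sphk1 passed under DESeq2 (1.43), limma-voom (1.33) and code number 9 alone (3.31). The scaling to pan-endothelial genes moved the median of all genes to -0.40; the lower genes were then 5 of the 10, with Spns2 at -0.48, Acer3 at -0.55, Sgpp1 at -0.33 and Asah1 at -0.35, while of the other lists Aldh3a2 (-0.40), Gnai2 (-0.28) and Gna12 (-0.31) turned negative and were called lower, and Gnai3 (-0.056) and Rhoa (-0.17) turned negative without passing. With the hepatocyte covariate Asah2 stood at -0.076, Apom at 0.088 and Grk2 at 0.093. The hepatocyte sum did not overlap between GF and CONV-R, so it and the group cannot be fully told apart. Over all genes, higher and lower counts were 971 and 2773 with library totals, 341 and 6614 with endothelial scaling, 629 and 579 at a threshold of 0.01, 978 and 1000 against code number 10, 275 and 225 with the hepatocyte covariate and 730 and 608 with the Kupffer cell covariate; leaving out 1 library gave 1013 to 1765 higher and 1208 to 1972 lower. The cause of these shifts was not tested. Other pathway genes higher ranged from 1 to 4 and lower stayed at 1 on leaving out 1 library, and receptor coupling genes from 4 to 6 higher and 0 to 2 lower. Leaving out CONV-R 1 and 7 together, chosen after seeing the data, kept the 2 higher and 1 lower of the 10 genes called, brought S1pr4 past the threshold (1.03) and lost Rhoa (0.17). Counts were few for Sphk1 (2 to 112 per library) and S1pr3 (5 to 54), so their values are the least precise of the 10. No paired analysis was possible because GF and CONV-R share no replicate number.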
